A study of Homo sapiens with 9 samples.

Results

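Cadherins and protocadherins are cell surface proteins with repeated extracellular domains that bind calcium. The genes described here were all symbols in the count table made of CDH and a number, or starting with PCDH, and 96 of the 26475 symbols met this rule. Of these 96, 23 were CDH genes and 73 carried a PCDH symbol. The mRNA came from A375 cells, an established human melanoma line with a mutant BRAF gene, given either the vehicle DMSO or TP-472 for 24 h, the latter at 5 µM or at 10 µM. TP-472 blocks the bromodomains of BRD9 and BRD7, proteins that read acetylated chromatin. Each group had 3 libraries, which the submitters call biological replicates, and no label says how the cultures were kept apart, so p-values measure only the spread between these libraries. All 9 libraries came from 1 cell line grown alone in culture, and the cells of every group, the DMSO cells too, carried the same BRAF mutation.

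Classical cadherins join neighbouring cells by binding the same cadherin on the next cell, and their tails hold on to p120, beta- and alpha-catenin and through them to actin. Melanocytes of the skin are held to keratinocytes by E-cadherin (CDH1), and the loss of E-cadherin with a gain of N-cadherin (CDH2) is a known feature of melanoma. The clustered protocadherins lie in 3 neighbouring arrays, alpha (PCDHA), beta (PCDHB) and gamma (PCDHG). Each variable exon has a promoter of its own, and in the alpha and gamma arrays it is spliced to constant exons that all genes of the array share. In neurons, the choice of promoters gives each cell a surface identity, and the factor CTCF with cohesin takes part in that choice. The other protocadherins are single genes, grouped as delta-1 and delta-2 by their cytoplasmic tails.

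By class, the 96 symbols were 5 type I classical cadherins, 13 type II classical cadherins, 5 other CDH genes, 5 delta-1, 5 delta-2 and 3 other single protocadherins, 3 antisense genes of PCDH9, and 57 clustered protocadherins. The clustered set held 15 PCDHA, 19 PCDHB and 23 PCDHG symbols, of which 4 were pseudogenes. A filter on low counts left 80 members among 16417 genes tested. The 16 members that did not pass were CDH1, CDH7, CDH9, CDH15, CDH16, CDH17, CDH20, CDH22, CDH23, PCDH8, PCDH11Y, PCDHB1, PCDHGB8P and the antisense genes PCDH9-AS2, PCDH9-AS3 and PCDH9-AS4. Since a gene can pass this filter through its level in a single group, the counts of tested members describe the members that passed and not all 96.

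The libraries held 42483091 to 51298130 estimated counts. One of them, 10 µM replicate 1, stood apart from the rest: 24 of the 96 members were at 0 there, against 8 to 14 in the other 8 libraries. Its members of the clustered arrays differed from the mean of the other 10 µM libraries by a median of -0.70 on the log2 scale, and its other members by -0.42. For 10 µM replicate 2 these medians were 0.65 and 0.12, and for replicate 3 they were 0.10 and 0.23, against means that include replicate 1. The main counts of called members and the sums over the arrays are given with and without 10 µM replicate 1. As a check of the labelled cell type, SOX10, the factor that marks the neural crest and melanocyte lineage, had a mean of 416, 413 and 391 counts per 1000000 scaled counts of the library (CPM) in DMSO, 5 µM and 10 µM. The pigment genes were low, with PMEL at 1.48 CPM in DMSO, MLANA at 0.173 CPM and TYR at 0 in all libraries. None of the 6 tested melanocyte genes was called by edgeR, DESeq2 or limma-voom in either comparison with DMSO, and 0 had an unadjusted p under 0.05. Marker lists of keratinocytes and endothelial cells held 4 genes each. The keratinocyte genes summed to 49.4 to 56.7 CPM per DMSO library, 62.0 to 65.9 with 5 µM and 67.1 to 97.7 with 10 µM, most of it KRT10, with KRT1 at or near 0. By edgeR, KRT10 was called higher at 10 µM (log2 fold change 0.66, adjusted p = 0.0045), and the other 2 tested keratinocyte genes were not called. The endothelial genes summed to 4.21 to 5.49, 5.17 to 9.86 and 10.4 to 15.8 CPM, most of the rise in KDR, with PECAM1 at a mean of 1.79, 0.889 and 1.2 CPM. KDR was called higher by edgeR at 5 µM (log2 fold change 1.58, adjusted p = 0.012) and at 10 µM (2.50, adjusted p = 0.00029). The other 3 endothelial genes were called at neither dose. The 3 leukocyte genes read summed to 0.103 to 0.423, 0.197 to 0.308 and 0.367 to 1.55 CPM, highest in 10 µM replicate 1, with CD3E at 0. The part of these values in the results below was not tested.

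The promoters of the clustered genes are shown here because these genes were 55 of the 80 tested members and 9 of the 14 called lower at 10 µM. The share called lower at 10 µM was 16.4% of the clustered genes, beside 17.5% of all tested members. RefSeq promoter windows on GRCh38.p14, each of 250 bases before and 50 bases after the start of a transcript, were at hand for 47 of the 57 clustered symbols (52 windows). The letters CGCT, the core of a box known from most clustered promoters, stood on either strand in 51 of the 52 windows, a share of 98.1%, against 70.0% of 35116 windows over all genes. On the sense strand and within the last 100 bases before the start, CGCT stood in 84.6% of the clustered windows and in 28.1% of all windows. The 100 bases before the start follow for PCDHA1, the first gene of the locus, and for 8 clustered members called below, with CGCT on the sense strand in capitals and all on the plus strand.
PCDHA1, chr5:140786040-140786139: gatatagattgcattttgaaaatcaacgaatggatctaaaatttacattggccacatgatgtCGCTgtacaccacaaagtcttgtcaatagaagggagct
PCDHA4, chr5:140806968-140807067: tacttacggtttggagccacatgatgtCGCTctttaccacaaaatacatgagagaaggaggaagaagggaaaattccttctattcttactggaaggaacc
PCDHB4, chr5:141121718-141121817: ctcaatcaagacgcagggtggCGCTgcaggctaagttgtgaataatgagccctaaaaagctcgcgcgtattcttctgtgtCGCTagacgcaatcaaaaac
PCDHB5, chr5:141135106-141135205: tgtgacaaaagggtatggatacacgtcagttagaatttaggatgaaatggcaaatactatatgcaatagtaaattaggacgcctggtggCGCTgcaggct
PCDHB7, chr5:141172544-141172643: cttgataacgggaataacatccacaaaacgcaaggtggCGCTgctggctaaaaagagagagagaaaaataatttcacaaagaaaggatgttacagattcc
PCDHB10, chr5:141192253-141192352: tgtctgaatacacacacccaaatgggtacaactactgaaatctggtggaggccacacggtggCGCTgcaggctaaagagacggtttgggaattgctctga
PCDHGA7, chr5:141382642-141382741: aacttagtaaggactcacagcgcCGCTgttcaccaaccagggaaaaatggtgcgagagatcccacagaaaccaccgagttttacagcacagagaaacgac
PCDHGA8, chr5:141392533-141392632: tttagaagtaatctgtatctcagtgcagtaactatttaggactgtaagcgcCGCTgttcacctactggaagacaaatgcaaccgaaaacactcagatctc
PCDHGC3, chr5:141475866-141475965: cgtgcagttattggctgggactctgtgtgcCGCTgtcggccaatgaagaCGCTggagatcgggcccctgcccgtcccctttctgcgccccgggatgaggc
The letters around the core differed between the arrays. GTGGCGCT, which contains the core, was found on either strand in 13 of 14 PCDHB windows and in 0 PCDHA, PCDHGA, PCDHGB and C-type windows, against 1.15% of all windows. CGCTGT, which overlaps the core, was found in 10 of 11 PCDHGA windows, 8 of 11 PCDHGB windows, 4 of 5 C-type windows, 6 of 11 PCDHA windows and 1 of 14 PCDHB windows, against 11.2% of all windows. These longer motifs were picked after the sequences had been read, and a match describes the letters only. Of the 9 clustered members called lower at 10 µM, 8 had a window, and PCDHB6 was not searched. CGCT was in all 9 windows of these 8 genes and in 42 of the 43 windows of the other clustered members.

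In DMSO, the members differed widely in level. Compared per kb of exon, CDH2 was the highest at 33.0 ± 0.0814 CPM per kb (SD, n = 3, as for every ± given here). PCDHGC3, a C-type gene of the gamma array, followed at 23.9 ± 0.494 CPM per kb. CDH13 (T-cadherin, which is anchored by a lipid and has no cytoplasmic tail) was at 15.5 ± 0.183 and PCDH1 (a delta-1 protocadherin) at 13.1 ± 0.478 CPM per kb. PCDHB6 at 6.42 ± 0.151 and CDH19 (a type II cadherin of the neural crest and Schwann cell lineage) at 5.20 ± 0.245 CPM per kb came next, and each neighbour in this order differed by more than the SDs. The order of these 6 genes was the same when the length of the longest transcript was used. CDH1 was listed at 0 counts in all DMSO and all 5 µM libraries, where 3 counts would have been 0.0581 to 0.0709 CPM, and at 16, 0 and 5 counts in the 10 µM libraries. It was too low to be tested.

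A gene is called higher or lower here where the fold change was at least 1.5 and the adjusted p of the quasi-likelihood test of edgeR was under 0.05, adjusted over all 16417 genes by Benjamini-Hochberg. At 5 µM, 3 of the 80 tested members were higher than in DMSO, namely CDH10, PCDH7 and PCDHA4, and 2 were lower, namely CDH11 and PCDH18. Over all genes, 2.14% were called higher and 2.72% lower, so the members' 3.75% and 2.5% lay near the background. At 10 µM, 2 members were higher (CDH10 and CDH8) and 14 were lower. Those 14 are 17.5% of the tested members, beside 10.5% of all genes called lower, and the 2 are 2.5%, beside 8.57% called higher. The median log2 fold change of the members was -0.13 at 5 µM and -0.27 at 10 µM, beside 0.005 and 0.011 over all genes. At 10 µM, 59 of 80 members had a negative value, beside 8050 of the 16417 genes. Without 10 µM replicate 1, the median at 10 µM was -0.21 with 52 of 80 negative and 18 called lower, beside 11% of all genes called lower. In bulk RNA, fewer cells that express a gene and less RNA per cell cannot be told apart.

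**Figure D1:**
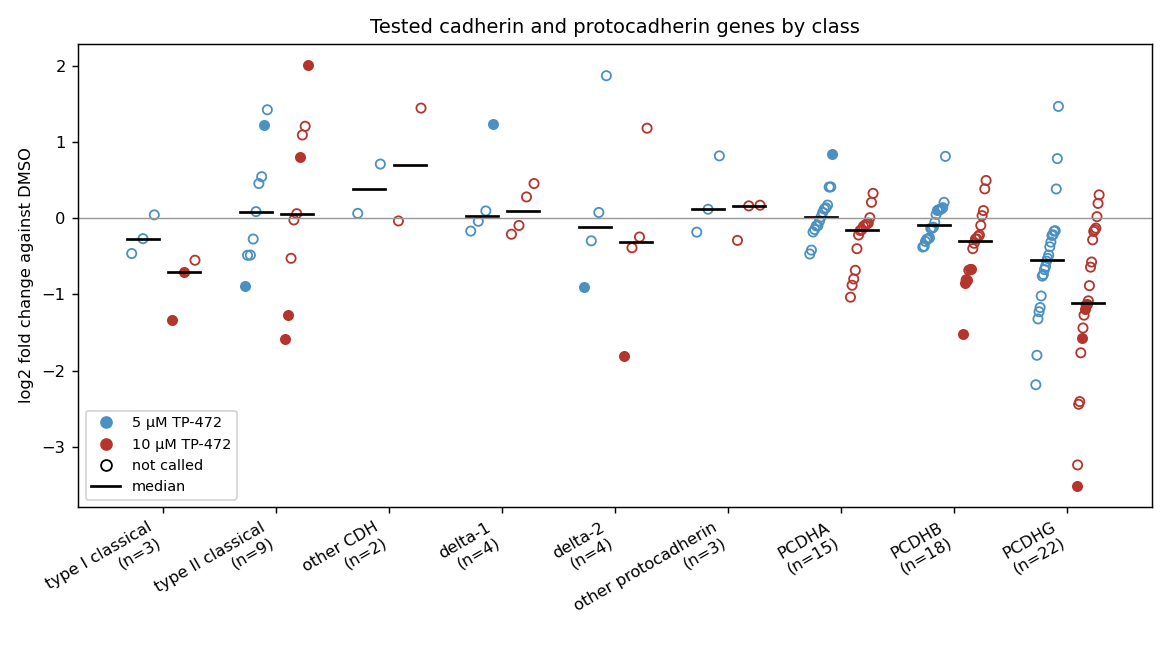
Log2 fold change against DMSO (vertical axis) of each of the 80 tested members, by class (horizontal axis), at 5 µM in blue and 10 µM in red. Filled points were called, open points were not, and black lines mark class medians. The PCDHG genes have the lowest median, -1.11 at 10 µM, and the 2 members called higher at 10 µM are both type II cadherins.

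By the plainer rule that the 3 libraries of a dose do not overlap the 3 DMSO libraries, 19 members lay wholly below and 7 wholly above DMSO at 5 µM. Over all genes these shares were 25% below and 23.7% above. At 10 µM, 27 of 80 lay wholly below and 5 wholly above, beside 26% and 23.4% of all genes. The 27 below at 10 µM are 33.8% of the tested members. By class, they were 34.5% of the 55 clustered protocadherins (19 genes), 35.7% of the 14 CDH genes and 27.3% of the 11 single protocadherins. Within the clustered set, the share was 0% of PCDHA, 50% of PCDHB and 45.5% of PCDHG genes.

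Of the type I cadherins, CDH2 and CDH3 fell at 10 µM. N-cadherin (CDH2), the main classical cadherin of mesenchymal and neural cells, was at 163, 163 and 164 CPM in the DMSO libraries, 121, 119 and 115 CPM with 5 µM and 86.3, 107 and 108 CPM with 10 µM. The 3 groups did not overlap, and the DMSO libraries were nearly equal. The log2 fold change was -0.70 (SE 0.09, adjusted p = 0.00028) at 10 µM and -0.46 (SE 0.09, adjusted p = 0.0099) at 5 µM, where the change did not reach 1.5-fold. Without 10 µM replicate 1, the lowest library, CDH2 was still called at 10 µM, at -0.61 (SE 0.04, adjusted p = 7.6e-09). P-cadherin (CDH3), a cadherin of basal epithelial cells, was low, at 2.05, 2.28 and 1.92 CPM in the DMSO libraries, 1.38, 1.98 and 1.83 CPM with 5 µM and 0.888, 0.519 and 1.06 CPM with 10 µM. All 3 libraries at 10 µM lay below all others, and the log2 fold change was -1.34 (SE 0.32, adjusted p = 0.0094). CDH4 (R-cadherin) was at 0.165 to 1.14 CPM in the 9 libraries with overlapping groups, and CDH15 (M-cadherin of muscle) did not pass the filter.

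The type II cadherins moved in both directions. CDH11, a cadherin of mesenchymal cells, was at 14.4, 15.5 and 14 CPM in the DMSO libraries, 8.56, 8.64 and 6.49 CPM with 5 µM and 2.91, 5.36 and 6.38 CPM with 10 µM. Its log2 fold change was -0.89 (SE 0.24, adjusted p = 0.044) at 5 µM and -1.58 (SE 0.25, adjusted p = 0.00094) at 10 µM, and the lowest library was 10 µM replicate 1, without which the value at 10 µM was -1.32 (SE 0.14, adjusted p = 1.6e-06). The call at 5 µM was lost when any 1 of the DMSO or 5 µM libraries was left out, with adjusted p of up to 0.17 over the alternatives. CDH12 (brain cadherin) was at 19.5, 18.5 and 16.8 CPM in the DMSO libraries, 13.6, 13.6 and 12 CPM with 5 µM and 7.31, 8.27 and 7.13 CPM with 10 µM. These 3 groups were fully separate. The log2 fold change of CDH12 was -0.48 (SE 0.11, adjusted p = 0.019) at 5 µM, short of 1.5-fold, and -1.27 (SE 0.11, adjusted p = 2.2e-05) at 10 µM.

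CDH10, a cadherin best known from the brain, rose from low levels. It was at 0.483, 1.07 and 0.851 CPM in the DMSO libraries, 1.27, 2.11 and 2.22 CPM with 5 µM and 3.43, 3.11 and 3.14 CPM with 10 µM, with no overlap between the groups. The log2 fold change was 1.22 (SE 0.34, adjusted p = 0.047) at 5 µM and 2.01 (SE 0.34, adjusted p = 0.0015) at 10 µM. The call at 5 µM was kept under 8 of 18 alternatives, with adjusted p of up to 0.16. It was lost by limma-voom, with no filter, under the replicate block and without any 1 of the DMSO libraries, 5 µM replicate 2 or 3 or 10 µM replicate 2 or 3. The call at 10 µM was kept under all 18. CDH10 and CDH12 lie on the same chromosome arm, at chr5:24487100-24644978 and chr5:21750673-22853622 (hg38, GENCODE 29), both on the minus strand, and moved in opposite directions at 10 µM. CDH8, another cadherin of the nervous system, was at 1.05, 1.13 and 0.946 CPM in the DMSO libraries, 1.69, 1.18 and 1.42 CPM with 5 µM and 1.84, 1.86 and 1.77 CPM with 10 µM. Its log2 fold change at 10 µM was 0.81 (SE 0.26, adjusted p = 0.037), and the call was kept under 8 of 18 alternatives. It was lost when any 1 of the DMSO or 10 µM libraries or 5 µM replicate 3 was left out. The call was also lost with no filter, with only the groups compared and under the replicate block.

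Other type II members at measurable levels were not called. CDH19 was at 36.7, 33.7 and 36.6 CPM in the DMSO libraries, 38.1, 38.6 and 36.7 CPM with 5 µM and 28.6, 37.6 and 39.1 CPM with 10 µM, with a log2 fold change of -0.02 (SE 0.11, adjusted p = 0.90) at 10 µM. CDH24 had a log2 fold change of -0.53 (SE 0.16, adjusted p = 0.030) at 10 µM, just short of 1.5-fold, and all its 10 µM libraries lay below DMSO. CDH5 (VE-cadherin, the cadherin of endothelial cells) was at 0.166 to 0.555 CPM in DMSO and 0.558 to 0.978 CPM at 10 µM, with an adjusted p of 0.21. Of the 4 endothelial markers given above, KDR was called higher at 10 µM and the other 3 were not called. CDH6 and CDH18 were under 1.6 CPM in every library and not called. Outside the classical groups, CDH13 had overlapping groups, at 171 to 175 CPM without TP-472, 175 to 184 with 5 µM and 137, 194 and 175 CPM with 10 µM, with a log2 fold change of -0.04 (SE 0.11, adjusted p = 0.83) at 10 µM. CDH26 was at 0.201 to 0.402 CPM in DMSO and 0.496 to 0.917 CPM at 10 µM, and its log2 fold change of 1.44 missed the threshold (SE 0.55, adjusted p = 0.070).

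**Figure D2:**
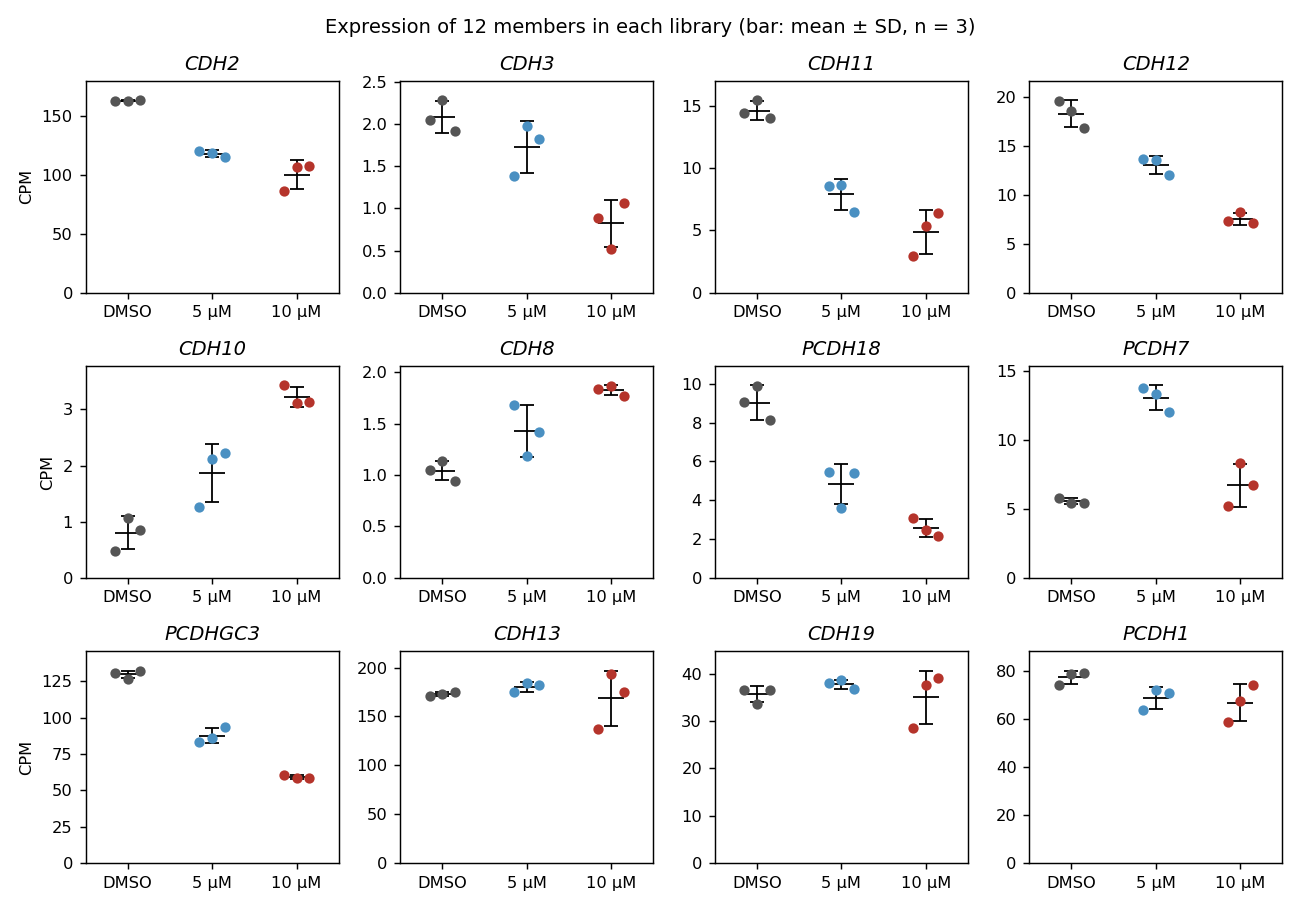
Expression in CPM (vertical axes, each starting at 0) of 12 members in each library of DMSO, 5 µM and 10 µM TP-472 (horizontal axes), with the mean ± SD of 3 libraries as black bars. CDH2, CDH3, CDH11, CDH12, PCDH18 and PCDHGC3 stand lower at 10 µM, CDH10 and CDH8 higher, PCDH7 is high at 5 µM, while CDH13 and CDH19 overlap DMSO at 10 µM and PCDH1 lies slightly below DMSO at both doses.

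Among the 11 tested single protocadherins, PCDH18 and PCDH7 changed. At 5 µM, 9.09% of the 11 were called each way, beside 2.14% higher and 2.72% lower over all genes. At 10 µM, 9.09% were lower and 0 higher, beside 10.5% and 8.57% of all genes. PCDH18, a delta-2 protocadherin, was at 9.05, 9.92 and 8.13 CPM in the DMSO libraries, 5.48, 3.62 and 5.42 CPM with 5 µM and 3.10, 2.44 and 2.18 CPM with 10 µM. The groups were fully separate, and the log2 fold change was -0.90 (SE 0.20, adjusted p = 0.020) at 5 µM and -1.81 (SE 0.21, adjusted p = 0.00014) at 10 µM. Leaving out any 1 DMSO library or 5 µM replicate 2 ended the call at 5 µM. PCDH7, a delta-1 protocadherin, was high at the lower dose. It was at 5.79, 5.45 and 5.41 CPM in the DMSO libraries, 13.8, 13.4 and 12.1 CPM with 5 µM and 5.18, 8.30 and 6.70 CPM with 10 µM. The 5 µM libraries stood above all others, while DMSO and 10 µM overlapped. Its log2 fold change was 1.23 (SE 0.17, adjusted p = 0.0014) at 5 µM and 0.28 (SE 0.16, adjusted p = 0.23) at 10 µM.

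The other single protocadherins were not called at either dose. PCDH1 was at 74.1, 78.9 and 79.1 CPM in DMSO and 58.7, 67.7 and 74.0 CPM at 10 µM, just below DMSO without overlap, and the log2 fold change was -0.21 (SE 0.10, adjusted p = 0.12). The delta-1 gene PCDH9 and the delta-2 gene PCDH17 overlapped DMSO at 10 µM, with log2 fold changes of -0.10 and -0.25. PCDH10, a delta-2 member, was at 18.2 to 19.9 CPM in the DMSO libraries, 15.1 to 16.1 CPM with 5 µM and 10.4, 17.3 and 16.6 CPM with 10 µM. Both doses lay below DMSO, and the log2 fold change of PCDH10 at 10 µM was -0.39 (SE 0.17, adjusted p = 0.097). PCDH12, PCDH15 and PCDH20, the single protocadherins outside the delta groups, had log2 fold changes of 0.16, 0.17 and -0.29 at 10 µM with overlapping groups.

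In the 55 tested clustered protocadherins, 1 was higher at 5 µM, a share of 1.82% beside 2.14% of all genes. At 10 µM 9 were lower, a share of 16.4% beside 10.5% of all genes, and 0 were higher, beside 8.57%. By edgeR 0 clustered genes had a positive change with an unadjusted p under 0.05 at 10 µM, against 15 with a negative one, and DESeq2 and limma-voom called 11 and 12 lower and 0 higher. The median log2 fold change at 10 µM was -0.15 for PCDHA, -0.30 for PCDHB and -1.11 for PCDHG, and the PCDHG median was -0.69 without 10 µM replicate 1. With a trend on gene length and GC content removed, the PCDHA median was 0.015, with 7 of 15 genes negative in place of 12. The estimated counts of these genes rest on shared sequence: 93.3% of their values above 0 were not whole numbers, by a tolerance of 0.004, against 3.4% for the other members. Values that are not whole come from reads that the estimation divided between genes, so single clustered genes are less certain than the other members and than the sums over an array.

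**Figure D3:**
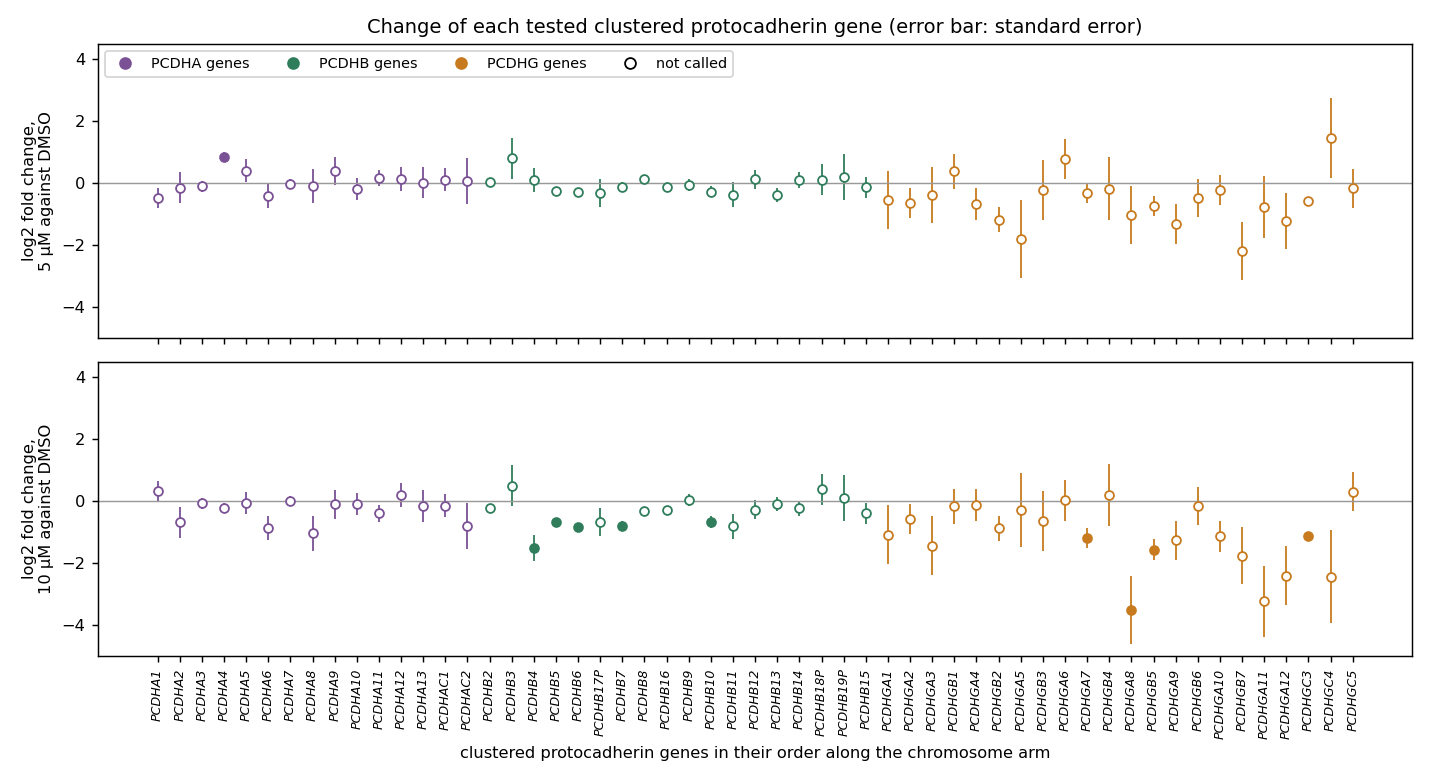
Log2 fold change against DMSO (vertical axes) at 5 µM (upper panel) and 10 µM (lower panel) of the 55 tested clustered protocadherins in their order along the chromosome arm, coloured by array, with error bars of 1 standard error. Filled points were called. The called genes at 10 µM lie in the PCDHB and PCDHG arrays, and the error bars are widest in PCDHG.

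Summed over each array, PCDHA was at 80.9 ± 1.06 CPM in the DMSO libraries, 85.6 ± 3.80 CPM with 5 µM and 67.0 ± 16.2 CPM with 10 µM. The 10 µM libraries were at 48.6, 78.9 and 73.4 CPM, so the low mean lay mostly in replicate 1, and the ratio to DMSO was 0.827 with it and 0.941 without it. PCDHB was at 109 ± 1.12, 99.8 ± 4.49 and 78.7 ± 3.87 CPM, and its 10 µM libraries at 74.7, 82.4 and 78.8 CPM all lay below every other library. The ratio to DMSO was 0.724 with replicate 1 and 0.742 without it. PCDHG was at 185 ± 1.80, 129 ± 1.25 and 88.0 ± 15.7 CPM, with fully separate groups and ratios to DMSO of 0.697 at 5 µM and 0.475 at 10 µM, or 0.519 without replicate 1. These sums are a description with no test. The counts behind them were 2352 to 4338 estimated counts per library for PCDHA, 3620 to 5374 for PCDHB and 3478 to 9224 for PCDHG.

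**Figure D4:**
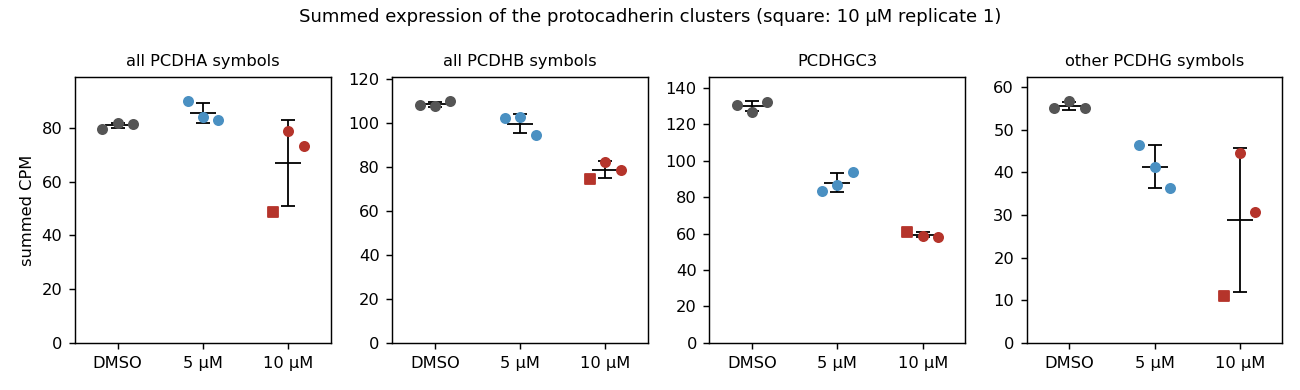
Summed CPM (vertical axes, starting at 0) per library of all PCDHA symbols, all PCDHB symbols, PCDHGC3 and the other PCDHG symbols in DMSO, 5 µM and 10 µM TP-472 (horizontal axes), with the mean ± SD of 3 libraries as black bars and 10 µM replicate 1 as a square. The means of PCDHGC3 are 129.9, 87.8 and 59.2 CPM with no overlap between the groups, and the square lies lowest in the PCDHA, PCDHB and other PCDHG sums.

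Most of the gamma sum was PCDHGC3, a C-type gene that is known to be expressed in many tissues. It made up 69.1% to 70.6% of the PCDHG counts in DMSO, 64.3% to 72.0% at 5 µM and 84.6%, 56.8% and 65.5% at 10 µM. PCDHGC3 was at 131, 127 and 132 CPM in the DMSO libraries, 83.4, 86.4 and 93.6 CPM with 5 µM and 60.8, 58.7 and 58.3 CPM with 10 µM. The 3 groups were fully separate, and 10 µM replicate 1 did not stand apart for this gene. The log2 fold change was -0.56 (SE 0.07, adjusted p = 0.00097) at 5 µM, short of 1.5-fold at 0.676 of the DMSO level, and -1.13 (SE 0.07, adjusted p = 2.9e-06) at 10 µM. PCDHGC3 lies at chr5:141475947-141512979 on the plus strand (hg38, GENCODE 29), and 40.2% of its exonic bases are shared with other genes on that strand. Its promoter stretch above holds the core CGCT at 2 places.

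The other gamma genes summed to 55.0, 56.6 and 55.0 CPM in the DMSO libraries, 46.3, 41.3 and 36.4 CPM with 5 µM and 11, 44.6 and 30.7 CPM with 10 µM. The ratio of the 10 µM mean to DMSO was 0.518 with replicate 1 and 0.678 without it. PCDHGA7, whose promoter is shown above, was at 12.6, 12.7 and 12.2 CPM in the DMSO libraries, 10.7, 9.95 and 9.46 CPM with 5 µM and 2.23, 6.54 and 7.64 CPM with 10 µM. Its log2 fold change at 10 µM was -1.19 (SE 0.34, adjusted p = 0.021), or -0.82 (SE 0.12, adjusted p = 2.6e-05) without 10 µM replicate 1, and the call was lost when any 1 of the DMSO libraries was left out. PCDHGB5 was at 5.49, 4.96 and 8.13 CPM in the DMSO libraries, 4.25, 4.30 and 2.57 CPM with 5 µM and 1.14, 2.60 and 2.48 CPM with 10 µM. The log2 fold change was -1.58 (SE 0.34, adjusted p = 0.0059) at 10 µM. PCDHGA8 had 23.2, 20.3 and 13.6 estimated counts in DMSO and 0, 5.08 and 0 at 10 µM. Its fitted log2 fold change of -3.51 (SE 1.11, adjusted p = 0.033) depends on the prior count. The call was kept under 8 of 17 alternatives, and was lost without any 1 of the DMSO or 5 µM libraries, without 10 µM replicate 3, with no filter and with only the groups compared. Of the 22 tested PCDHG genes, 19 had a negative log2 fold change at 10 µM, and 16 of 22 without replicate 1, where PCDHGA10 and PCDHGA11 were called lower as well. At 5 µM, edgeR called 0 of 22, beside 2.72% of all genes lower and 2.14% higher. By edgeR 3 were lower at an unadjusted p under 0.05, and DESeq2 called 1 lower and limma-voom 0.

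In the beta array, where each gene is a single exon with no shared constant exons, PCDHB4, PCDHB5, PCDHB6, PCDHB7 and PCDHB10 fell at 10 µM. These 5 are 27.8% of the 18 tested PCDHB genes, beside 10.5% of all genes called lower. PCDHB6, the highest of the array, was at 20.4, 21.1 and 21.4 CPM in the DMSO libraries, 18.2, 17.8 and 15.8 CPM with 5 µM and 9.44, 13.8 and 11.6 CPM with 10 µM. Its log2 fold change at 10 µM was -0.85 (SE 0.13, adjusted p = 0.00092), and its groups were fully separate. PCDHB5, with GTGGCGCT just before its start, was at 14.9, 15.4 and 14.6 CPM in the DMSO libraries, 10.9, 13.5 and 13.1 CPM with 5 µM and 10.3, 9.80 and 8.27 CPM with 10 µM. The log2 fold change was -0.66 (SE 0.12, adjusted p = 0.0024) at 10 µM. PCDHB7 was at 6.68, 7.24 and 6.31 CPM in the DMSO libraries, 5.72, 6.22 and 6.51 CPM with 5 µM and 3.10, 4 and 4.46 CPM with 10 µM. All its 10 µM libraries lay below the others, and the log2 fold change was -0.81 (SE 0.16, adjusted p = 0.0039). PCDHB10 had a log2 fold change of -0.67 (SE 0.18, adjusted p = 0.018) and PCDHB4, at under 1.1 CPM in every library, -1.53 (SE 0.41, adjusted p = 0.018). The call of PCDHB4 was lost without DMSO replicate 1 or 3, that of PCDHB10 without DMSO replicate 1 or 2, and that of PCDHB5 without 10 µM replicate 3, where it fell short of 1.5-fold.

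Other genes of the beta array were not called. PCDHB2 was at 13.4, 14.1 and 15 CPM in DMSO and 12.3, 11.2 and 12.9 CPM at 10 µM, and PCDHB16 at 14.7, 14.1 and 14.4 CPM in DMSO and 12.2, 12.2 and 11.2 CPM at 10 µM. Neither was called, with log2 fold changes of -0.22 and -0.27 and adjusted p of 0.19 and 0.075 by edgeR. PCDHB8, whose shift was -0.33 (SE 0.11, adjusted p = 0.038), was below 1.5-fold. PCDHB9 was at 2.86 to 4.28 CPM in DMSO and 3.78 to 3.96 CPM at 10 µM. At 5 µM edgeR called 0 of 18 PCDHB genes, beside 2.72% of all genes lower and 2.14% higher. By edgeR 0 had an unadjusted p under 0.05, and DESeq2 and limma-voom called 0.

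The alpha array had the fewest calls of the arrays at 10 µM. At 10 µM edgeR called 0 of 15 PCDHA genes, beside 10.5% of all genes lower and 8.57% higher. By edgeR 1 was lower at an unadjusted p under 0.05, and DESeq2 and limma-voom called 0. The single call against DMSO in this array was PCDHA4 at the lower dose. PCDHA4 was at 8.29, 7.26 and 6.33 CPM in the DMSO libraries, 14.1, 12.9 and 12.4 CPM with 5 µM and 7.66, 6.19 and 4.93 CPM with 10 µM. The 5 µM libraries stood above all others, and the log2 fold change was 0.84 (SE 0.17, adjusted p = 0.012) at 5 µM and -0.22 (SE 0.17, adjusted p = 0.35) at 10 µM. The call at 5 µM was lost without DMSO replicate 2 or 3 or 5 µM replicate 1, with adjusted p of up to 0.068. PCDHA6, the highest alpha gene per kb of exon, was at 10.3, 15.5 and 15.1 CPM in DMSO and 2.87, 7.59 and 11.7 CPM at 10 µM, with overlapping groups and a log2 fold change of -0.88 (SE 0.39, adjusted p = 0.11). PCDHA6 was called lower under the replicate block and without 10 µM replicate 3. PCDHA7 had a log2 fold change of 0.01 (SE 0.16, adjusted p = 0.98) and PCDHA5 of -0.07 (SE 0.36, adjusted p = 0.91) at 10 µM. The C-type alpha genes PCDHAC1 and PCDHAC2 had log2 fold changes of -0.15 and -0.80, and PCDHAC2 was at 0.145 CPM in 10 µM replicate 1 beside 3.56 and 5.99 CPM in the other two.

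The doses were compared with each other to ask where the higher dose went beyond the lower one. At 10 µM, 6 members were lower than at 5 µM and 0 were higher, beside 2.59% and 1.42% of all genes. The 6 are 7.50% of the members. For the higher direction, 2 members had an unadjusted p under 0.05 by edgeR, and DESeq2 and limma-voom called 0. CDH12 and PCDH18 fell further, with log2 fold changes between the doses of -0.79 (SE 0.11, adjusted p = 0.0023) and -0.91 (SE 0.21, adjusted p = 0.026). PCDH7 and PCDHA4, which were high at 5 µM, were lower at 10 µM, with log2 fold changes between the doses of -0.96 (SE 0.16, adjusted p = 0.0072) and -1.07 (SE 0.17, adjusted p = 0.0051). PCDHB4 and PCDHB7 had values of -1.64 (SE 0.41, adjusted p = 0.039) and -0.67 (SE 0.16, adjusted p = 0.032). The calls of PCDH18, PCDHB4 and PCDHB7 between the doses were lost when any 1 of the DMSO libraries was left out. PCDHGC3 had a log2 fold change of -0.57 (SE 0.07, adjusted p = 0.0013) between the doses, which is just under 1.5-fold. CDH2, at -0.24 (SE 0.09, adjusted p = 0.13), did not differ between the doses beyond the threshold.

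The partners of cadherins were read from lists chosen by function. Of 11 tested catenins and junction partners, 1 was higher and 3 lower at 10 µM, and 1 higher and 1 lower at 5 µM. These are 9.09% higher and 27.3% lower at 10 µM, beside 8.57% and 10.5% of all genes, and 9.09% each way at 5 µM, beside 2.14% and 2.72%. Of the core catenins, CTNNA1 (alpha-catenin) was at a mean of 424, 422 and 418 CPM and CTNNB1 (beta-catenin) at 373, 372 and 334 CPM, and neither was called, at log2 fold changes of -0.02 and -0.16 at 10 µM. CTNND1 (p120-catenin, which keeps cadherins at the surface) had a log2 fold change of -0.51 (SE 0.11, adjusted p = 0.0059) at 10 µM, just under 1.5-fold. VCL (vinculin, which ties the complex to actin under tension) fell from a mean of 281 CPM to 139 CPM at 10 µM, a log2 fold change of -1.01 (SE 0.13, adjusted p = 0.00036). CTNNAL1 (alpha-catulin) fell at both doses, by log2 fold changes of -0.74 and -0.73, and PKP3 (plakophilin) had a log2 fold change of -0.62 at 10 µM, a call lost under upper-quartile scaling and without 10 µM replicate 2 or 3. ARVCF, a relative of p120-catenin, rose from a mean of 3.10 CPM to 7.11 CPM at 10 µM, a log2 fold change of 1.2 (SE 0.17, adjusted p = 0.00058), and its call at 5 µM was lost without any 1 of the DMSO or 5 µM libraries.

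Of 4 tested desmosomal genes, DSC3 (a desmocollin) rose at both doses, by log2 fold changes of 0.86 and 0.78, and DSG2 (a desmoglein) fell at 10 µM, its log2 fold change being -0.63 (SE 0.20, adjusted p = 0.034), or -0.38 without 10 µM replicate 1, where it was not called. These are 25% higher at 5 µM, beside 2.14% of all genes, and 25% each way at 10 µM, beside 8.57% higher and 10.5% lower. The calls of DSG2 at 10 µM and of DSC3 at 5 µM were kept under 9 and 12 of 18 alternatives. Both were lost without any 1 of the DMSO or 5 µM libraries. That of DSG2 was also lost with only the groups compared and with the trend on length and GC content removed. The call of DSC3 at 10 µM was lost without DMSO replicate 1 or 10 µM replicate 2. In 15 tested genes of the wider cadherin superfamily, 3 fell at 10 µM, a share of 20% beside 10.5% of all genes. DCHS1 (a partner of the FAT cadherins) had a log2 fold change of -1.47 at 5 µM and -2 (SE 0.32, adjusted p = 0.0012) at 10 µM, and its call at 5 µM was lost without DMSO replicate 2 or 3 or 5 µM replicate 1 or 3. CELSR1 and CELSR2, seven-pass cadherins of planar cell polarity, fell at 10 µM by log2 fold changes of -1.02 and -1.19. Of 14 genes for CTCF, cohesin and silencers of the clustered locus, 1 fell at 10 µM, a share of 7.14% beside 10.5% of all genes. That gene was RAD21, a cohesin subunit, at a mean of 339, 268 and 216 CPM, with a log2 fold change of -0.65 (SE 0.09, adjusted p = 0.0004). Without 10 µM replicate 1, RAD21 fell short of 1.5-fold, at -0.55 (SE 0.04, adjusted p = 4e-09), and was not called. CTCF itself was at 75.0, 85.2 and 72.3 CPM, with a log2 fold change of -0.05 (SE 0.13, adjusted p = 0.79) at 10 µM. Of 12 genes of the WAVE complex and kinases that bind protocadherin tails, CYFIP2 rose at both doses, by log2 fold changes of 1.43 and 1.52, from a mean of 41.5 CPM to 112 and 119 CPM. PTK2B rose at both doses, with log2 fold changes of 0.96 and 0.72, calls kept under 10 and 6 of 18 alternatives. Both calls were lost by limma-voom, under the replicate block and without any 1 of the DMSO or 5 µM libraries. ABI2 fell at 10 µM, its log2 fold change being -0.91. Of these 12 genes, 16.7% were higher at 5 µM, beside 2.14% of all genes. At 10 µM, 16.7% were higher and 8.33% lower, beside 8.57% and 10.5%. The part of these genes in the changes of the members was not tested.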

How the data were processed

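RNA of 9 A375 cultures was sequenced from strand-specific libraries. Per the submitters' processing notes, Bowtie2 2.1.0 and RSEM 1.2.15 were used with hg38. The authors deposited RSEM estimated counts per gene symbol, unscaled, with no pooling. The sources used here do not give the annotation, filters or strand setting. The label protocols name oligo-dT purification, while the series text names ribosomal RNA depletion.

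Estimated counts were rounded and tested with edgeR 4.0.16 (R 4.3.3), in 1 fit of the 3 groups with TMM factors (0.957 to 1.029), filterByExpr and the quasi-likelihood test, with adjustment over 16417 genes. This script was tested on simulated data. CPM used TMM-scaled totals. Exonic lengths came from GENCODE 29. Named were all called members, the 3 highest of each class, CDH1, CDH2, CDH3, CDH11, CDH13, CDH19, and among the partner lists the called genes, CTNNB1, CTNND1, CTNNA1 and CTCF, and other members where values or counts were singled out. The members and lists were chosen with earlier results of these data known. The labels do not say that replicate numbers mark a shared batch, and the correlations given below showed no pairing. Alternatives were other scaling factors, filters, thresholds and samples in the fit, a replicate block, DESeq2 1.42.0, limma-voom (limma 3.58.1), each library left out in turn and, chosen after seeing the data, removal of a trend with length and GC content. PCDH11Y was counted without printing its level. A gene of the leukocyte list is not reported here.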

Additional observations from a re-analysis of the deposited data

Results flagged for a closer look

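By the edgeR test of 10 µM against 5 µM, 9 of the 80 tested members differed between the doses at an adjusted p under 0.05 over all genes. All 9 were lower at 10 µM and 0 higher, beside 5.53% lower and 2.87% higher of all genes by adjusted p alone. PCDHGC3, PCDHB6 and PCDHB8 were short of 1.5-fold, and the other 6 members were called. Their log2 fold changes from 5 µM to 10 µM were -0.79 for CDH12 (adjusted p = 0.0023), -0.91 for PCDH18 (adjusted p = 0.026), -0.96 for PCDH7 (adjusted p = 0.0072), -1.07 for PCDHA4 (adjusted p = 0.0051), -1.64 for PCDHB4 (adjusted p = 0.039) and -0.67 for PCDHB7 (adjusted p = 0.032). CDH12 and PCDH18 had fallen at the lower dose as well, by log2 fold changes of -0.48 and -0.90 against DMSO, the former short of 1.5-fold. PCDH7 and PCDHA4 were instead higher at 5 µM than in DMSO, and their log2 fold changes at 10 µM against DMSO were 0.28 and -0.22 with adjusted p of 0.23 and 0.35. For PCDHB4 and PCDHB7 the log2 fold changes at 5 µM against DMSO were 0.11 and -0.13. With only 2 groups in the fit, the differences of PCDH18, PCDH7, PCDHB4 and PCDHB7 missed the threshold.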

How the results depend on the processing

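Scaling by DESeq2-type or upper-quartile factors left the counts of called members as they were. Main counts were 3 higher and 2 lower at 5 µM, 2 higher and 14 lower at 10 µM, and 6 lower between the doses. Percentages in brackets are the shares of all genes called in the same direction under the same setting. Members lower at 5 µM numbered 6 with only the groups compared in the fit (4.6%) and 5 by adjusted p alone (5.81%). They numbered 0 where a 2-fold change was required (0.804%). Members higher at 10 µM numbered 1 with a fold change of at least 2 (3.9%), with no filter (6.14%) and with only the groups compared (7.94%). In each of these CDH8 was lost. Members lower at 10 µM numbered 9 where the fold change was at least 2 (4.6%). Those lower between the doses numbered 2 at that threshold (0.725%) and 2 with only the groups compared (1.03%). Deviations of same-numbered libraries from their group means correlated at -0.0493 to 0.0322. The numbers thus showed no pairing, though 3 libraries a group cannot exclude it. The replicate block gave 1 lower (2.43%) and 2 higher (1.75%) at 5 µM. It gave 1 higher (7.73%) and 16 lower (10.6%) at 10 µM, and 4 lower between the doses (2.31%).

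With 1 library left out, 1 to 3 members were higher and 0 to 5 lower at 5 µM, beside 1.17% to 3.43% and 1.68% to 3.98% of all genes. At 10 µM, 1 to 2 were higher and 10 to 18 lower, beside 6.22% to 9.34% and 8.72% to 11.2% of all genes. Between the doses 3 to 10 were lower, beside 1.53% to 3.42% of all genes. Without 10 µM replicate 1, 5 members were lower at 5 µM (3.98% of all genes), where PCDHGB2, PCDHGB5 and PCDHGB7 joined. Without it CDH24, PCDHB15, PCDHGA10 and PCDHGA11 were lower and CDH26 higher at 10 µM as well, while CDH8 was lost. Without DMSO replicate 1, 2 or 3, or 5 µM replicate 2, 0 members were lower at 5 µM, beside 1.68% to 1.92% of all genes. Without 10 µM replicate 2, 10 were lower between the doses, beside 3.42% of all genes. The CDH10, CDH11 and PCDH18 calls at 5 µM were lost without any 1 DMSO library. The 10 µM calls of CDH2, CDH3, CDH10, CDH11, CDH12, PCDH18, PCDHB6, PCDHB7, PCDHGB5 and PCDHGC3 held in all 18 alternatives to the test, scaling, filter, samples and libraries. A trend with gene length and GC content took up 10.4% of the variance of 10 µM replicate 1 against the others of its group, 4.48% and 5.19% in those, and at most 0.459% elsewhere. With that trend removed, 15 members were lower at 10 µM (9.22% of all genes) and 4 between the doses (2.24%), and PCDHA4 was no longer called at 5 µM. The cause of these losses was not tested. Genes under 1 CPM, among them PCDHB4, PCDHGA8 and CDH26, are limited by depth.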

Other observations

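Of the 4 pseudogenes in the arrays, 3 passed the filter. PCDHB17P was at 4.22, 3.35 and 4.44 CPM in DMSO and at 0.743, 3 and 3.73 CPM with 10 µM TP-472, and was not called, with a log2 fold change of -0.68 (SE 0.46, adjusted p = 0.28 by edgeR). PCDHB18P and PCDHB19P were under 1.4 CPM in every library. The C-type gamma genes other than PCDHGC3 were low, with PCDHGC4 at 0.0402 to 0.473 CPM and PCDHGC5 at 0.226 to 0.591 CPM in DMSO. In 10 µM replicate 1, 9 tested clustered genes were at 0, beside 0 and 4 in the other 10 µM libraries and 0 in each DMSO library.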
